A study of Mus musculus with 9 samples.

Results

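The 8 genes described here encode receptors that steer white blood cells along gradients of chemoattractants: the chemokine receptors Cxcr2, Cxcr4, Ccr1, Ccr2, Ccr9 and Cx3cr1 and the formyl peptide receptors Fpr1 and Fpr2. They were taken by gene symbol, and all 8 of 8 were found among the 19454 genes listed for the series. The study profiled haematopoietic stem cells (HSCs), the self-renewing cells of the bone marrow that give rise to all blood lineages, from wild-type mice by low-input RNA sequencing of 1500 sorted cells and 12 PCR cycles per library. The 3 groups have 3 libraries each. The control group, labelled Ctrl, names no intervention. In the inhibition group the mPFC and PAG brain regions were silenced by chemogenetics, a method in which a designer receptor is made to respond to a drug. The libraries of this group carry the name AAV. The spermidine group had the same inhibition together with a supplement of the polyamine spermidine. The labels give the controls no virus or drug, so effects of virus, drug and silencing cannot be told apart. They also give no age, sex, batch, sort markers or source animal, so p-values measure only the spread between these libraries, which may be technical.

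Chemokine and formyl peptide receptors are membrane proteins coupled to inhibitory G proteins. A bound ligand activates phosphoinositide 3-kinase and Rac GTPases, which drive directed movement, and the receptor is then switched off by kinases, arrestins and RGS proteins. In the marrow, CXCR4 and its ligand CXCL12 retain stem cells and immature neutrophils, CXCR2 promotes the release of mature neutrophils, and CCR2 promotes the release of monocytes. Formyl peptide receptors sense peptides that carry the formylated start residue of bacterial and mitochondrial proteins, and are characteristic of mature myeloid cells.

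Each library held between 16096276 and 25360256 counts, so that a count of 0 (a floor of 3 counts) allowed up to 0.118 to 0.186 CPM (the count of a gene scaled to library size), counting error only. The check of the labelled cell type against its markers was mixed. All 16 HSC markers were listed, and their summed level was 356 to 362 CPM in the control libraries, 418 to 429 under inhibition and 564 to 571 in the spermidine libraries. The defining marker Procr had a mean of 0.125 CPM in the controls, below that floor in each control library (0.147 to 0.170 CPM). It was at 4.10 CPM in the inhibition and 7.59 in the spermidine libraries, and Ly6a (Sca-1) was at 6.21, 83.5 and 94.5 CPM. Slamf1 was among those that went the other way, at 104.5, 17.6 and 13.8 CPM. With inhibition, edgeR called 9 of the 16 HSC markers higher and 6 lower, and 1 was not called. Over all tested genes 36.2% were higher and 36.1% lower. With spermidine against inhibition 11 of the markers were higher, 1 was lower and 4 were not called. In that comparison 29.1% of all tested genes were higher and 28.9% lower.

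Markers of other cell types also moved with the groups. All 12 neutrophil markers rose with inhibition, where 36.2% of all genes tested with edgeR were called higher and 36.1% lower. Their summed level was 1154 to 1173 CPM in the controls, 43803 to 45014 under inhibition and 13979 to 14340 in the spermidine libraries. All 12 fell in the spermidine group against the inhibition group, where 28.9% of all tested genes were called lower. With scaling by total count 11 of 12 fell, where 1793 of all 14461 tested genes were lower. The summed level of 13 monocyte and macrophage markers was 813 to 832, 1253 to 1279 and 694 to 714 CPM in the same order. It rests mostly on Ly6c2 (501, 877 and 413 CPM). Of 11 tested monocyte and macrophage markers, 7 rose and 2 fell with inhibition, and Fn1 was among those that fell (109, 25.6 and 18.9 CPM). With spermidine against inhibition 1 of the 11 rose and 8 fell, or 1 and 6 with total count scaling. Against the controls 3 were higher and 5 lower in the spermidine group. B and plasma cell markers stood at 69.0 to 71.2, 4554 to 4964 and 1698 to 1836 CPM, dendritic cell markers at 18.3 to 19.6, 192 to 211 and 198 to 206 CPM, and megakaryocyte and platelet markers at 2882 to 2902, 124 to 133 and 120.3 to 126 CPM. T and NK cell markers stood at 1281 to 1363, 1906 to 2017 and 1010 to 1089 CPM, and basophil, eosinophil and mast cell markers at 1029 to 1053, 1142 to 1158 and 789.8 to 803 CPM. These last sums rest mostly on Nkg7 (1311, 1916 and 1026 CPM) and Prg2 (817, 702 and 537 CPM). Against the controls, 7 of 8 tested T and NK cell markers were higher in the spermidine group and 1 was lower (median log2 fold change 1.68). Of 9 markers of the other list, 5 were higher and 3 lower (median 0.33). Over all tested genes, 41.0% were higher and 37.1% lower in that comparison. The dendritic cell sum rests mostly on Ly6d (10.2, 147 and 146 CPM in the control, inhibition and spermidine groups) and Cox6a2 (1.84, 42.2 and 44.7 CPM). Of 6 tested dendritic cell markers, 3 rose and 2 fell with inhibition, and 3 were higher and 3 lower with spermidine against the controls. In both inhibition groups the B and plasma cell sum rests mostly on Igkc (4029 and 1472 CPM). The megakaryocyte and platelet sum rests mostly on Pf4 (2673, 103.6 and 97.3 CPM). No gene of these lists was at 0 in all 3 libraries of a group. The part of other cell types in the receptor results below was not tested, and in bulk libraries more cells of a type and more RNA per cell cannot be told apart.

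**Figure D1:**
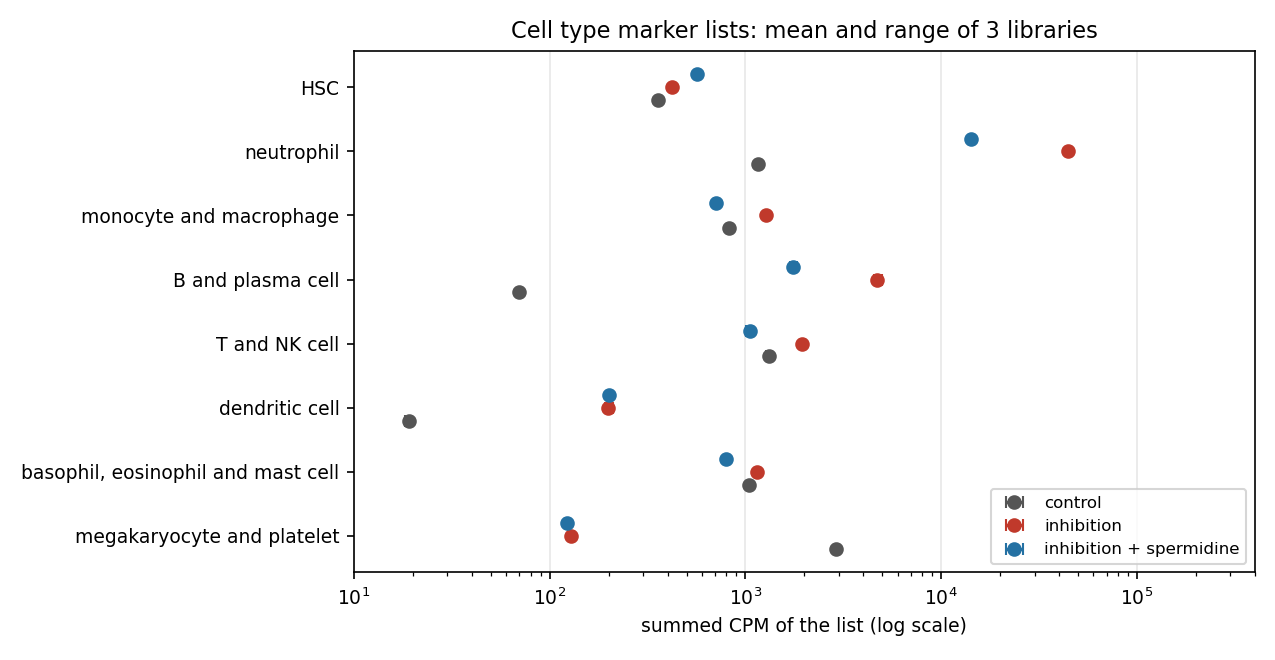
Summed level of each marker list on a log axis in CPM, by group. Points are means of 3 libraries, and bars, mostly smaller than the points, span the lowest to the highest library. The sums of the neutrophil, B cell and dendritic cell lists lie higher in both inhibition groups than in the controls. That of the megakaryocyte and platelet list lies lower. The dendritic cell sum rests mostly on Ly6d and Cox6a2.

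Inhibition was accompanied by a change in all 8 receptors. Fpr2, Fpr1, Ccr1, Cxcr4, Ccr2 and Ccr9 rose, and Cxcr2 and Cx3cr1 fell. That is 6 higher and 2 lower of the 8 tested, in a comparison in which edgeR called 72.4% of all 14461 tested genes (36.2% higher and 36.1% lower). A call was therefore common in this comparison. The receptors' median log2 fold change was 1.48 against 0.021 over all tested genes. The libraries of the compared groups did not overlap for any of the 8 receptors, as for 74.5% of all tested genes. In the spermidine group against the inhibition group, 7 receptors were lower and Ccr9 alone was higher, with a median of -0.86 against 0.027 over all genes, where 58.1% of genes were called (29.1% higher and 28.9% lower). No receptor overlapped between these groups, as for 62.8% of all genes. With total count scaling 5 receptors were lower, as Cxcr4 changed sign and Cx3cr1 was not called, while 7711 of all genes were higher and 1793 lower. With DESeq2, or without a filter on low counts, 0 receptors were higher. Against the controls, 5 receptors were higher, 2 lower and Ccr2 was not called in the spermidine group, with a median of 1.36 against 0.060 over all genes, of which 78.1% were called (41.0% higher and 37.1% lower). Between these groups 7 receptors, all but Ccr2, did not overlap, as for 79.8% of all genes. The 3 comparisons share groups of libraries and are not independent of each other.

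**Figure D2:**
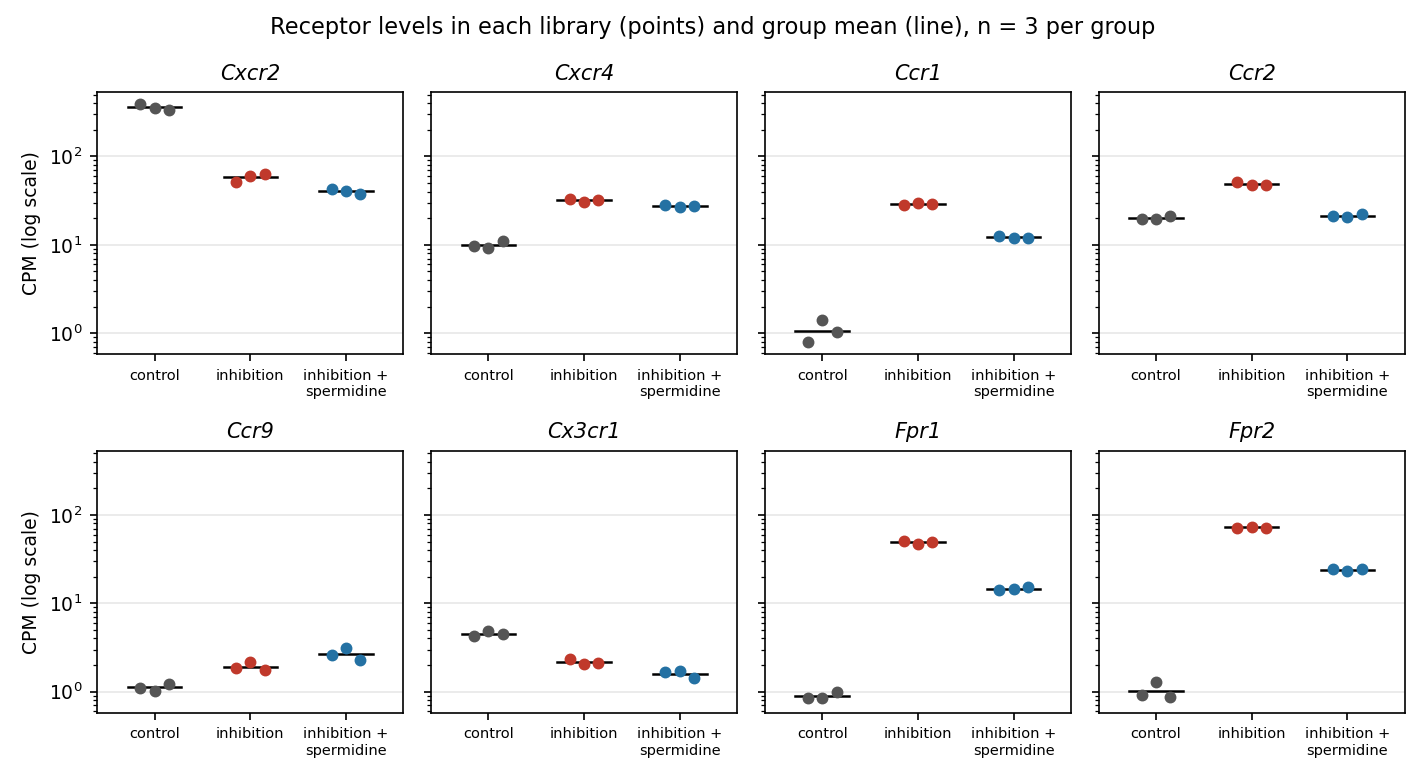
Level of each receptor in each library on a log axis in CPM, by group. Each point is 1 library and each line the mean of 3. Fpr1, Fpr2 and Ccr1 lie near 1 CPM in the controls and far higher in both inhibition groups, Cxcr2 lies highest in the controls, and the 3 Ccr2 points of the spermidine group lie near those of the controls.

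The formyl peptide receptors moved most. Fpr2, which binds formylated peptides and also lipid and protein ligands such as annexin A1, stood at 0.910, 1.29 and 0.877 CPM in the controls, at 71.6, 73.6 and 70.9 under inhibition, and at 24.1, 23.1 and 24.2 in the spermidine libraries. The 3 groups were far apart and no library of one reached another. The means were 1.02 ± 0.228, 72.0 ± 1.43 and 23.8 ± 0.622 CPM (SD, n = 3 each). Fpr2 rose 69.8-fold with inhibition (log2 fold change 6.12, SE 0.086, edgeR adjusted p = 6.25e-19), which placed it at percentile 98.9 of the fold changes of all tested genes.

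With spermidine Fpr2 fell by 1.60 on the log2 scale against inhibition alone (SE 0.048, adjusted p = 1.17e-13), at percentile 1.02 of all genes, and it remained 23.0-fold above the controls (log2 fold change 4.52, SE 0.10). Fpr1, the high-affinity receptor for formylated peptides, stood at 0.849, 0.858 and 0.980 CPM in the controls, 50.1, 47.1 and 49.2 under inhibition and 14.2, 14.5 and 15.1 in the spermidine libraries. Its groups, too, were separate, in the same order as those of Fpr2. The means were 0.896 ± 0.073, 48.8 ± 1.59 and 14.6 ± 0.466 CPM. Fpr1 rose 53.9-fold with inhibition (log2 fold change 5.75, SE 0.091, adjusted p = 2.67e-18), fell by 1.74 with spermidine against inhibition (SE 0.053, adjusted p = 1.22e-13) and stayed 16.1-fold above the controls (log2 fold change 4.01, SE 0.11). The control levels rest on 14 to 19 counts of Fpr1 and 15 to 24 of Fpr2 per library, so the size of these rises is less precise than the inhibition levels themselves.

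Fpr1 and Fpr2 are neighbours that point away from each other: in mm10, Fpr1 lies on the minus strand of chr17:17876471-17883940 and Fpr2 on the plus strand of chr17:17887824-17893952, with their annotated starts 3884 bases apart. The 250 bases before the RefSeq start of each (GRCm38.p6) are shown because the pair moved together, and those of Ccr1 because it moved the same way. Capitals mark matches to GAGGAA (a core bound by the myeloid factor PU.1) or GATAA (a core bound by GATA factors) on either strand.
Fpr1: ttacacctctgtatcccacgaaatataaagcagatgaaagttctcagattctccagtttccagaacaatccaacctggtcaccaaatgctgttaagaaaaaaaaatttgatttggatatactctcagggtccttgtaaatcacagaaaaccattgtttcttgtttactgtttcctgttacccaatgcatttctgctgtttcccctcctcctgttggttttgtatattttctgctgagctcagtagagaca
Fpr2: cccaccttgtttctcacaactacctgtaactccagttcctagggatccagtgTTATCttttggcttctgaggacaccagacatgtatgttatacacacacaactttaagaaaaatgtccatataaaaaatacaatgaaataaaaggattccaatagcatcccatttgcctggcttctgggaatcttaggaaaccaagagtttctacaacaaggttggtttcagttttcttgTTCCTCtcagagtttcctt
Ccr1: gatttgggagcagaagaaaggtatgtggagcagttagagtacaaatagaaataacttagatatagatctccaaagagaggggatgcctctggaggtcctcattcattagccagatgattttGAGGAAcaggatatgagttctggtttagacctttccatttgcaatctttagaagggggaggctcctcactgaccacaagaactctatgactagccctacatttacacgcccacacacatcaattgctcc
These windows span chr17:17883940-17884189 (minus strand) for Fpr1, chr17:17887574-17887823 (plus strand) for Fpr2 and chr9:123968693-123968942 (minus strand) for Ccr1. The Fpr2 window holds 1 match to GAGGAA and 1 to GATAA, the Ccr1 window 1 match to GAGGAA, and the Fpr1 window neither. Of the receptors whose windows are not shown, Cxcr4, Ccr2, Ccr9 and Cx3cr1 had no match to GAGGAA. Cxcr4 and Ccr2 had 1 match each to GATAA, and Ccr9 and Cx3cr1 had none. The windows shown therefore do not represent all 8 receptors. A further motif, TTGCNNAA, of the kind bound by C/EBP factors, had no match in the window of any of the 8 receptors. In 32851 promoter windows of the same length, 23.3% held GAGGAA, 22.6% GATAA and 9.56% TTGCNNAA. The motifs do not overlap in these windows, and they and the windows shown were chosen after the sequences and the receptor values had been seen.

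Exons of Fpr2 overlap those of Fpr3 on the same strand, and 20.9% of the 75-base windows of its transcripts also occur in other genes, most often Gm5966, so part of its count depends on how shared reads were assigned. No such window of Fpr1 occurs elsewhere. Of the other formyl peptide receptor genes, 3 of 5 were listed and none passed the filter on low counts, with summed levels of 0.061 to 0.310 CPM in the control, 0.166 to 0.200 in the inhibition and 0.665 to 1.16 in the spermidine libraries. The ratio of Fpr2 to Fpr1 in TPM (a level scaled for transcript length) was 1.91 to 2.10 under inhibition and 2.12 to 2.29 in the spermidine libraries. In the control libraries, with few counts, it was 1.25 to 2.09.

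Ccr1, a receptor for CCL3, CCL5 and the mouse chemokines CCL6 and CCL9 on neutrophils and monocytes, followed the formyl peptide receptors. Its levels were 0.789, 1.39 and 1.03 CPM in the controls, 28.3, 29.9 and 29.0 under inhibition, and 12.4, 12.1 and 12.1 in the spermidine libraries. No library of one group reached the range of another. Ccr1 rose 26.8-fold with inhibition (means 1.07 ± 0.305 and 29.1 ± 0.820 CPM, log2 fold change 4.74, SE 0.11, adjusted p = 3.69e-16). It fell by 1.25 with spermidine against inhibition (to 12.2 ± 0.195 CPM, SE 0.068, adjusted p = 2.00e-10), which left it 11.2-fold above the controls (log2 fold change 3.49, SE 0.13). The 13 to 26 counts per control library limit the precision of the rise.

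Ccr2, the receptor for CCL2 and CCL7 that marks classical monocytes and their precursors, rose with inhibition and was close to its control level in the spermidine group. It stood at 19.5, 19.5 and 21.0 CPM in the controls, 51.9, 47.4 and 48.0 under inhibition and 21.3, 20.9 and 22.1 in the spermidine libraries. The inhibition libraries lay above all others, and the ranges of the control and spermidine libraries overlapped. The rise was 2.45-fold (log2 fold change 1.29, SE 0.054, adjusted p = 1.05e-12), and the fall with spermidine was 1.19 on the log2 scale (SE 0.052, adjusted p = 1.22e-11).

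Between the spermidine and control groups, Ccr2 differed by a log2 fold change of 0.10 (SE 0.059, adjusted p = 0.146), which was not called. With scaling by total count alone the same difference was 0.36 and was called higher (adjusted p = 3.90e-05). All 3 limma fits on log2 TPM also called it higher, at 0.35 (adjusted p = 0.000338, or 0.000434 without a filter) with a pseudocount of 1 and at 0.42 (adjusted p = 0.000244) with 0.1, so the outcome depends on the scaling and the unit. Per length, Ccr2 was at 5.16 ± 0.077 TPM in the spermidine group and 3.83 ± 0.184 in the controls.

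Ccr9, the receptor for CCL25 that guides cells to the thymus and small intestine and is also found on plasmacytoid dendritic cells, had the lowest mean TPM of the receptors in each group. It stood at 1.09, 1.02 and 1.24 CPM in the controls, 1.84, 2.16 and 1.75 under inhibition and 2.62, 3.09 and 2.27 in the spermidine libraries. Each group lay above the one before it, with no overlap. Ccr9 rose 1.72-fold with inhibition (log2 fold change 0.79, SE 0.21, adjusted p = 0.00344) and was 2.39-fold above the controls in the spermidine group (log2 fold change 1.26, SE 0.20, adjusted p = 2.30e-05). The further rise with spermidine over inhibition was small (log2 fold change 0.47, SE 0.18, adjusted p = 0.0294). That call was lost with DESeq2 (adjusted p = 0.196), without a filter on low counts (0.0563), and without inhibition replicate 1 (0.0866), inhibition replicate 3 (0.103), spermidine replicate 1 (0.0536) or spermidine replicate 2 (0.151). Exons of Ccr9 overlap Slc6a20a on the opposite strand, and the labels state no strand-specific step, so reads of the overlap cannot be told apart. They also overlap the noncoding gene Gm17200 on the same strand. The length of Ccr9 implied by its counts and TPM was 4775 and 4604 bases in inhibition replicates 1 and 3. It was 6110 to 6326 bases in the other libraries. The size of its change therefore depends on the unit, with means of 0.123, 0.276 and 0.386 TPM in the same order of groups.

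Cxcr2, the receptor for CXCL1, CXCL2, CXCL5 and PPBP that drives neutrophil release and migration, fell with inhibition while all 12 neutrophil markers rose. Between the inhibition groups, Cxcr2 and these markers were all lower with spermidine (11 of the 12 with total count scaling). Its levels were 392.1, 356 and 336 CPM in the controls, 51.8, 59.5 and 63.3 under inhibition and 42.8, 40.9 and 37.6 in the spermidine libraries. Every control library was more than 5 times above every other library. Cxcr2 fell 6.19-fold with inhibition (means 361.5 ± 28.3 and 58.2 ± 5.85 CPM, log2 fold change -2.63, SE 0.065, adjusted p = 8.08e-16), at percentile 2.05 of all tested genes.

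In the spermidine group Cxcr2 fell by a further 0.53 against inhibition (to 40.4 ± 2.63 CPM, SE 0.072, adjusted p = 1.21e-05) and was 8.91-fold below the controls (log2 fold change -3.16, SE 0.067). While Cxcr2 fell, the neutrophil granule gene Ngp rose from 110.5 ± 2.64 to 10519 ± 325 CPM with inhibition (log2 fold change 6.57, SE 0.036) and S100a8 from 729 ± 5.59 to 19332 ± 537 (log2 fold change 4.73, SE 0.031). Pf4, a platelet chemokine gene, was among those that fell with Cxcr2, from 2673 ± 7.88 to 103.6 ± 3.47 CPM (a log2 fold change of -4.69, SE 0.034). Cxcr2 lies on the plus strand of chr1:74153989-74161246. The 250 bases before its RefSeq start (chr1:74153744-74153993, plus strand) are shown for comparison with those of the receptors that rose, with the same motifs in capitals.
Cxcr2: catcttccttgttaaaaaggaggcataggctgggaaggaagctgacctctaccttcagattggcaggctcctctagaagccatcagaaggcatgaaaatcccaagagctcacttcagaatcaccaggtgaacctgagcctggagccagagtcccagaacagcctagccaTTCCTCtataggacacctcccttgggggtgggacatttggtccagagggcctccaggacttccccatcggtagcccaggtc
The window holds 1 match to GAGGAA and none to GATAA. The same motif thus occurs here and in windows of genes that rose.

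Cxcr4, the receptor for CXCL12, rose with inhibition. It stood at 9.71, 9.17 and 10.9 CPM in the controls, 33.3, 30.5 and 31.8 under inhibition and 28.4, 26.6 and 27.3 in the spermidine libraries. The controls lay far below both other groups, which were close to each other without overlapping. The rise was 3.19-fold with inhibition (means 9.94 ± 0.906 and 31.9 ± 1.39 CPM, log2 fold change 1.67, SE 0.069, adjusted p = 7.82e-13) and 2.76-fold in the spermidine group against the controls (27.4 ± 0.928 CPM, log2 fold change 1.46, SE 0.070, adjusted p = 5.70e-12).

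The small difference between the inhibition groups had no stable direction. Cxcr4 was lower with spermidine by 0.21 in log2 CPM (SE 0.058, adjusted p = 0.00495), but with total count scaling the log2 fold change was 0.049 and not called. In TPM it stood at 13.1 ± 0.823 in the inhibition group and 14.01 ± 0.583 in the spermidine group, in the opposite order and with overlapping libraries. Cxcr4 lies on the minus strand of chr1:128588199-128592293, on the same chromosome as Cxcr2. The 2 CXC receptors changed in opposite directions: the ratio of Cxcr2 to Cxcr4 in TPM was 15.8 to 20.1 in the controls, 0.781 to 1.02 under inhibition and 0.698 to 0.789 in the spermidine libraries.

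Cx3cr1, the receptor for the membrane-bound chemokine CX3CL1 on patrolling monocytes, macrophages and their precursors, was the other receptor that fell. Its levels were 4.25, 4.83 and 4.49 CPM in the controls, 2.34, 2.08 and 2.10 under inhibition and 1.65, 1.72 and 1.44 in the spermidine libraries. The groups were separate and each lay below the one before it. Cx3cr1 fell 2.09-fold with inhibition (log2 fold change -1.07, SE 0.14, adjusted p = 3.79e-06) and 2.79-fold in the spermidine group against the controls (log2 fold change -1.48, SE 0.15, adjusted p = 9.34e-08).

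The difference between the inhibition groups was -0.41 in log2 terms (SE 0.16) with an adjusted p of 0.0482, just inside the threshold of 0.05. It was lost without any 1 of the 6 libraries compared (adjusted p from 0.0536 to 0.119), with DESeq2 (0.142) and with total count scaling (0.486). Ccr2 and Cx3cr1, which together distinguish classical from patrolling monocytes, parted with inhibition: the ratio of Ccr2 to Cx3cr1 in TPM was 4.10 to 4.79 in the controls, 21.8 to 23.0 under inhibition and 11.9 to 14.9 in the spermidine libraries.

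**Figure D3:**
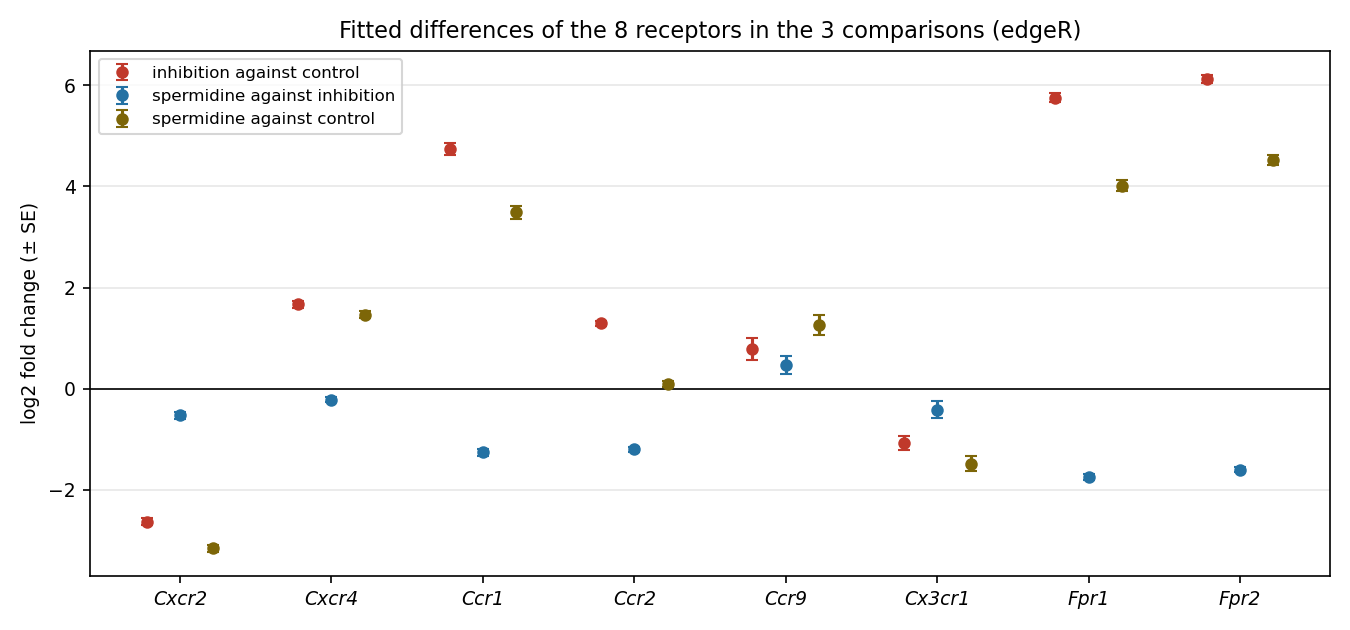
Fitted log2 fold change of each receptor in the 3 comparisons, with bars for ± 1 SE from the edgeR fit. Fpr1, Fpr2 and Ccr1 have the largest rises with inhibition and fall with spermidine against inhibition, Cxcr2 has the largest fall, and Ccr2 lies near 0 for spermidine against control.

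The changes reordered the receptors, compared here per length in TPM. In the control libraries Cxcr2 led at 69.6 ± 4.72 TPM and made up 87.3% of the summed TPM of the 8 receptors (86.1% to 88.6% over the libraries). Ccr2 (3.83) and Cxcr4 (3.80) followed with overlapping libraries, then Cx3cr1 (0.848) and Fpr2 (0.763), also overlapping, then Fpr1 (0.472), Ccr1 (0.228) and Ccr9 (0.123). In the inhibition libraries Fpr2 led at 57.0 ± 1.32 TPM with 44.5% of the sum, followed by Fpr1 at 28.9 ± 1.31 with 22.5%. Cxcr4 (13.1) and Cxcr2 (12.1) overlapped in the next place, and Ccr2 (9.74), Ccr1 (6.52), Cx3cr1 (0.435) and Ccr9 (0.276) came below without overlap.

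In the spermidine libraries Fpr2 still led at 23.2 ± 0.661 TPM with 34.3% of the sum, but Cxcr4 at 14.01 (20.7%) now stood above Fpr1 at 10.6, which overlapped with Cxcr2 at 10.5. Ccr2 (5.16) and Ccr1 (3.39) followed, and Cx3cr1 (0.395) and Ccr9 (0.386) overlapped at the bottom. The summed level of the receptors was 76.2 to 84.4 TPM in the controls, 127 to 129.9 under inhibition and 66.6 to 69.1 in the spermidine libraries. In CPM, which are not scaled for length, the sums were 377 to 429, 291 to 296 and 142 to 147. Whether the sum was higher or lower with inhibition than in the controls therefore depends on the unit. The spermidine group had the lowest sum in both units. Its makeup in TPM lay nearer to that of the inhibition group than to that of the controls, with Cxcr2 at 15.5% of the sum against 9.49% and 87.3%.

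**Figure D4:**
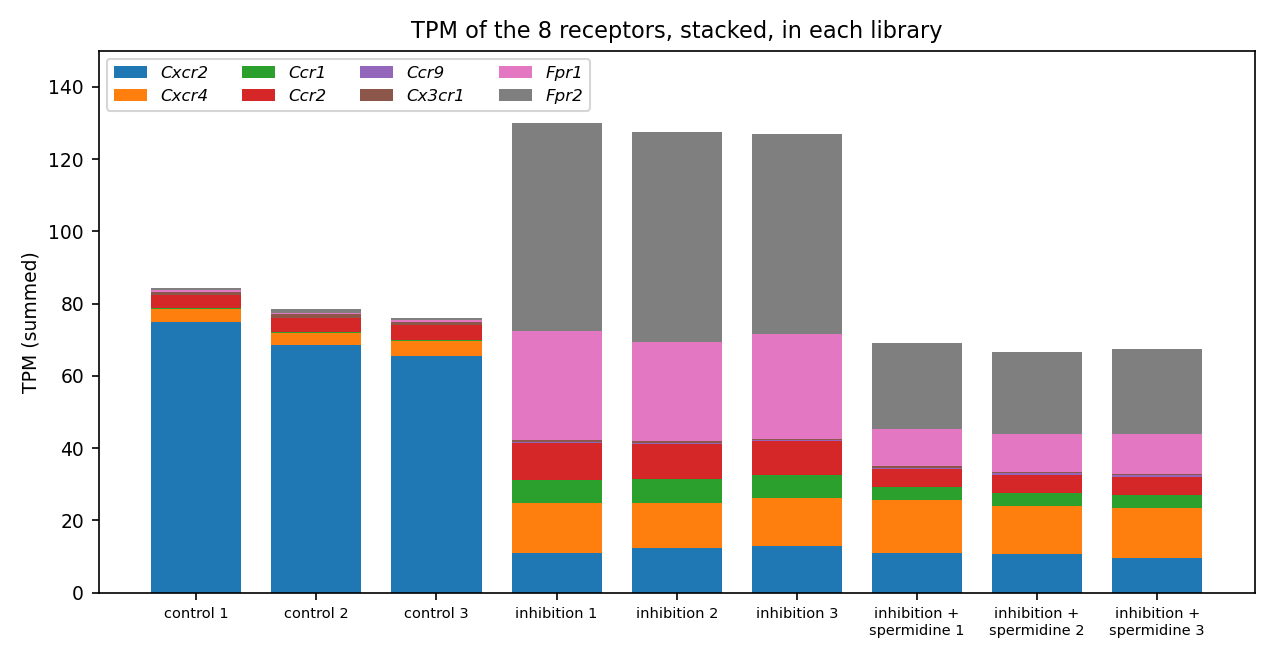
Stacked TPM of the 8 receptors in each library. Cxcr2 fills most of each control bar, whereas Fpr2 and Fpr1 fill most of each inhibition bar. The spermidine bars reach 66.6 to 69.1 TPM and hold the same receptors as the inhibition bars at lower levels, apart from Cxcr4 and Ccr9.

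Among themselves, the receptors with the most similar profiles over the 9 libraries were Fpr1 and Fpr2, with a root mean square difference of 0.28 between their centred log2 CPM profiles. Cxcr4 and Ccr9 (0.42) and Ccr1 and Fpr1 (0.43) came next, and Cxcr2 and Fpr2 were the farthest apart (3.86). Genes outside the set were compared in the same way, among about 8245 tested genes with a mean of at least 5 CPM. The nearest to Fpr1 were Il1r2 (0.059), a decoy receptor for interleukin-1, and the neutrophil markers S100a9 (0.096) and Cd177 (0.11). The nearest to Fpr2 were Ceacam10 (0.13), the granule gene Lcn2 (0.16) and Camp (0.16), which encodes the cathelicidin precursor.

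Ccr1 was most like Slfn4 (0.21) and the paralogs Lilrb4a (0.21) and Lilrb4b (0.27), whose reads may be hard to separate. Ccr2 was most like Fcer1g (0.071), the common Fc receptor gamma chain, Ms4a6d (0.079) and Msrb1 (0.086). Cxcr4 was most like Asah1 (0.053), Pqlc3 (0.077) and Skap2 (0.078), and Ccr9 most like Btbd19 (0.099), Wee1 (0.11) and Sox6 (0.12). Cxcr2 lay nearest to Arhgef40 (0.075), Hlcs (0.081) and Zfp410 (0.081), and Cx3cr1 to Trim28 (0.080), Uba2 (0.080) and Vps51 (0.087), with no gene of the neutrophil list among the nearest to either.

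Ccr9, Ccr1 and Ccr2 lie in a cluster of chemokine receptor genes that covers 435119 bases of chromosome 9 from the annotated start of Ccr9 (chr9:123678439-123784330, plus strand) through Ccr1 (chr9:123962124-123968692, minus strand) to the end of Ccr2 (chr9:124101950-124113557, plus strand). Cx3cr1 lies apart on the same chromosome (chr9:119901616-120069879, minus strand). Genes of the cluster changed in both directions. Xcr1, a receptor of cross-presenting dendritic cells chosen after its values were seen, fell from 3.46 ± 0.308 to 1.26 ± 0.485 CPM (a log2 fold change of -1.42, SE 0.22). Ccr3, the eosinophil eotaxin receptor, and Cxcr6, chosen likewise, were higher with inhibition but stayed low, at 0.232 ± 0.158 and 0.053 ± 0.054 CPM in the controls and 1.68 ± 0.133 and 1.72 ± 0.220 in the inhibition group.

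The counts over related genes that follow are to be read against the shares over all tested genes, 36.2% higher and 36.1% lower with inhibition. For spermidine against inhibition these shares were 29.1% and 28.9%, and for spermidine against control 41.0% and 37.1%. With total count scaling, 7711 of 14461 genes were higher and 1793 lower for spermidine against inhibition. Over the other chemokine receptors, 9 of 18 were tested, and 4 rose and 2 fell with inhibition (median log2 fold change 0.26), so that the share called was not above the 72.4% of all genes. Between the inhibition groups 3 rose and 3 fell with spermidine, and 4 rose and 1 fell with total count scaling. Ccrl2, an atypical receptor that holds chemerin at the cell surface, rose at both steps, from 15.3 ± 0.241 to 18.3 ± 0.966 with inhibition (log2 fold change 0.25, SE 0.062, adjusted p = 0.00161) and to 25.9 ± 0.568 with spermidine (log2 fold change 0.51, SE 0.056, adjusted p = 1.05e-06). Cxcr1, the closest relative of Cxcr2, was below the filter, with group means of 0.084 to 0.219 CPM.

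Of 13 tested receptors for other chemoattractants, 6 rose and 4 fell with inhibition (median 0.63), where 72.4% of all genes were called. C5ar1, the receptor for complement C5a, had the pattern of the formyl peptide receptors, at 0.360 ± 0.141, 32.3 ± 1.83 and 11.9 ± 0.216 CPM in the control, inhibition and spermidine groups. It rose by a log2 fold change of 6.43 with inhibition (SE 0.14, adjusted p = 9.08e-17) and fell by 1.44 with spermidine against inhibition (SE 0.068). The second C5a receptor, C5ar2, fell at both steps, from 16.6 ± 1.40 to 7.60 ± 0.289 and 3.48 ± 0.139 CPM (a log2 fold change ofs -1.12, SE 0.084, and -1.13, SE 0.10). Ptafr, the receptor for platelet-activating factor, rose from 1.24 ± 0.177 to 14.5 ± 0.723 CPM with inhibition (log2 fold change 3.54, SE 0.12). Ltb4r1, the leukotriene B4 receptor, rose from 2.76 ± 0.161 to 8.60 ± 1.12 CPM (a log2 fold change of 1.65, SE 0.14) and fell to 4.06 ± 0.549 with spermidine (log2 fold change -1.09, SE 0.12).

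The sphingosine-1-phosphate receptors differed. S1pr4 fell with inhibition from 10.2 ± 0.782 to 3.79 ± 0.319 CPM (a log2 fold change of -1.42, SE 0.10). S1pr1, whose product draws cells from the marrow into the blood, rose with spermidine against inhibition from 10.8 ± 0.721 to 18.7 ± 0.864 CPM (a log2 fold change of 0.80, SE 0.072). Between the inhibition groups 3 of the 13 receptors rose and 6 fell, and 6 rose and 5 fell with total count scaling.

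Ligands of the 8 receptors were also measured in these cells. Of 18 tested, 7 rose and 8 fell with inhibition (median -0.05), a split near that of all genes (36.2% higher and 36.1% lower). Among the ligands of Cxcr2, Cxcl2 rose from 11.1 ± 0.762 to 21.2 ± 1.03 CPM (a log2 fold change of 0.94, SE 0.073). Cxcl1 fell from 4.23 ± 0.403 to 0.456 ± 0.084 (log2 fold change -3.22, SE 0.29). Ppbp, made by platelets, fell from 82.1 ± 2.86 to 19.3 ± 0.942 (log2 fold change -2.09, SE 0.048). Cxcl5 fell from 3.83 ± 0.822 to 1.68 ± 0.354 (-1.22, SE 0.21), and Cxcl3 from 0.836 ± 0.326 to 0.402 ± 0.184 (-1.10, SE 0.44, edgeR adjusted p = 0.0325). The ligands named above for Ccr1 rose with it. Ccl6 went from 15.97 ± 0.556 to 136.4 ± 1.84 CPM (a log2 fold change of 3.09, SE 0.044), Ccl5 from 7.84 ± 1.45 to 35.0 ± 0.772 (2.17, SE 0.083), Ccl9 from 35.6 ± 1.01 to 113 ± 2.72 (1.66, SE 0.041) and Ccl3 from 129.9 ± 2.55 to 231 ± 5.91 (0.83, SE 0.031).

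The ligands of Ccr2 fell while the receptor rose: Ccl2 went from 87.1 ± 1.18 to 75.4 ± 3.40 CPM (a log2 fold change of -0.21, SE 0.040) and Ccl7 from 4.398 ± 0.091 to 0.939 ± 0.273 (-2.21, SE 0.20). Cxcl12, the ligand of Cxcr4, stayed below 1 CPM in each group mean, and its difference with inhibition was not called (log2 fold change 0.64, SE 0.34, adjusted p = 0.104), although it was called without inhibition replicate 2 (0.89, adjusted p = 0.0339). Ligands of Fpr2 differed in direction. Anxa1 went up from 346 ± 12.1 to 4127 ± 110.5 CPM (a log2 fold change of 3.58, SE 0.033), and Camp from 82.1 ± 1.57 to 4632 ± 64.4 (5.82, SE 0.032), while Saa3, a serum amyloid A gene, fell from 95.9 ± 10.4 to 36.9 ± 2.68 (-1.37, SE 0.068, adjusted p = 9.15e-12).

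With spermidine against inhibition, 3 of the 18 ligand genes rose and 9 fell (median -0.24), or 3 and 6 with total count scaling. Camp fell by 1.46 (SE 0.026), Anxa1 by 1.29 (SE 0.030), Ccl6 by 1.10 (SE 0.036), Cxcl2 by 0.77 (SE 0.069) and Ccl9 by 0.64 (SE 0.037). Ccl3 rose further, to 293 ± 1.37 CPM (a log2 fold change of 0.34, SE 0.029). Against the controls, 6 of the 18 were higher and 8 lower in the spermidine group, where 41.0% of all genes were higher and 37.1% lower. Ppbp was still low at 22.2 ± 0.385 CPM (a log2 fold change of -1.88, SE 0.046).

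Downstream of the receptors, 16 of 26 tested signalling genes rose and 5 fell with inhibition (median 0.40), against 36.2% higher and 36.1% lower over all genes. Rac2, the Rac GTPase of blood cells, rose from 124 ± 1.85 to 323.5 ± 6.15 CPM (a log2 fold change of 1.38, SE 0.031). With spermidine against inhibition 1 rose and 14 fell, where 29.1% of all genes were higher and 28.9% lower, among them Rac2 (by 0.61, SE 0.029). These counts depend on the scaling: 11 rose and 8 fell with total count scaling (median 0.081). With that scaling, 7711 of all 14461 tested genes were higher and 1793 lower (median 0.288). The fall of Rac2 was not called in TPM (log2 difference -0.15, limma adjusted p from 0.185 to 0.218). Of 16 tested genes that switch the receptors off, 4 rose and 8 fell with inhibition (median -0.26), where 72.4% of all genes were called. The RGS genes, whose products speed the shut-off of G proteins, were divided. Rgs1 fell from 1582 ± 24.4 to 905.5 ± 15.8 CPM (a log2 fold change of -0.81, SE 0.026), Rgs18 from 1085 ± 24.0 to 705 ± 31.0 (-0.62, SE 0.033) and Rgs10 from 59.5 ± 0.608 to 20.2 ± 1.33 (-1.55, SE 0.057), while Rgs19 rose from 73.1 ± 1.99 to 145 ± 3.45 (0.99, SE 0.037).

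Itch, the ubiquitin ligase that sends the CXCR4 protein to degradation, fell from 75.3 ± 2.78 to 37.6 ± 2.23 CPM with inhibition (log2 fold change -0.995, SE 0.047). In the spermidine group it was at 29.7 CPM (log2 fold change -1.34 against the controls, SE 0.047). Protein was not measured, and a link to the level of Cxcr4 was not tested. With spermidine against inhibition 6 of the 16 rose and 7 fell, or 6 and 4 with total count scaling. Rgs1 rose to 1784 ± 14.8 CPM (a log2 fold change of 0.98, SE 0.026) and Rgs2 rose from 338 ± 9.47 to 452 ± 4.31 (0.42, SE 0.028). Rgs10 was lowest in the spermidine group, at 14.5 ± 1.15 CPM (a log2 fold change of against the controls -2.03, SE 0.059).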

How the data were processed

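Polyadenylated RNA of sorted HSCs was sequenced in 9 libraries. The authors deposited estimated counts per gene, of which 48.2% are whole to within 1e-06, and TPM, scaled within each library for length and depth. Per the submitters' processing notes, the tools were edgeR 3.24.3, HTSeq 0.10.0, STAR 2.6.1d and Trim Galore 0.6.2, with build mm10. Which step made the fractional values is not given in the sources used here. Counts were rounded and tested in R 4.3.3 with edgeR 4.0.16 (quasi-likelihood test, all 9 libraries in 1 fit, TMM factors of 0.931 to 1.14, default filterByExpr), in which 14461 of 19454 genes took part, with Benjamini-Hochberg adjusted p over these and a threshold of 0.05. CPM use the TMM factors, and SEs come from the F statistic. DESeq2 1.42.0 and limma 3.58.1 were alternatives. The procedure was checked on simulated data in which few genes changed, in the inhibition group alone. That check could not test the scaling between groups in which most genes differ. Coordinates are from GENCODE M21, in which 19443 genes matched, and promoters are from RefSeq GRCm38.p6, in which all 8 receptors matched.

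The receptors and gene lists were chosen with earlier results of these data known. From each list, up to 5 genes a comparison were eligible to be named, those with the smallest p and a mean of at least 5 CPM in some group, plus all tested ligands. The named ones were picked from these by hand, and Procr, Nkg7, Prg2, Cxcr1, Xcr1, Ccr3 and Cxcr6 were chosen after their values were seen. Genes with a similar profile are the 3 nearest per receptor, with pseudogenes, antigen receptor segments and unnamed gene models set aside. Scaling by total count in place of TMM raised the median log2 fold change of all genes by 0.26 in both comparisons that involve the spermidine group. That changed the calls for spermidine against inhibition from 4213 higher and 4183 lower to 7711 and 1793, and for spermidine against control from 5930 and 5363 to 7705 and 3682. Receptor differences between these groups are relative to that choice. Replicates of a group differed beyond counting noise.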

Additional observations from a re-analysis of the deposited data

How the results depend on the processing

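For inhibition against control, the 8 receptors kept direction and call in every alternative that gave them a value. The named genes followed there did so too, other than Cxcl12, while Cxcl3, Cxcl5 and Cxcr6 were among those not followed. Leaving out 1 library kept 6 receptors higher and 2 lower. Filtered limma fits on log2 TPM (pseudocounts 1 and 0.1, genes at TPM of at least 1 in 3 libraries) do not include Cx3cr1 and Ccr9 and gave 5 higher and 1 lower, with 1 lower also for spermidine against control. For spermidine against inhibition, Cxcr4 reversed to a log2 fold change of 0.049 with total count scaling, 0.086 with limma on log2(TPM + 1), with or without the filter, and 0.091 with log2(TPM + 0.1), none of them called. The 1 receptor called higher, Ccr9, became 0 with DESeq2, without a count filter and in both filtered limma fits, and 0 to 1 when a library was left out. The 7 called lower became 4 with unfiltered limma, where Cxcr2 missed the threshold (adjusted p = 0.0605), and 6 when any library was left out.

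Over all genes, spermidine against inhibition gave 7711 higher and 1793 lower with total count scaling, 7997 and 1333 with unfiltered limma, and 1119 lower (pseudocount 1) or 1094 lower (0.1) with filtered limma. Spermidine against control gave 9239 higher and 2918 lower with unfiltered limma, and 2415 or 2380 lower with filtered limma. The cause was not tested, apart from the scaling and the number of genes that each fit sets. Libraries with the same replicate number did not deviate together (residual correlation -0.037 to 0.053 over 9 pairs), so no pairing was used. With the replicate block, 6 receptors were lower between the inhibition groups because Cx3cr1 missed the threshold (adjusted p = 0.0525), and no other receptor call changed. Counts per kilobase of effective length in place of TPM changed the order of the receptors only between neighbours whose libraries overlap (Ccr2 and Cxcr4 in the controls, Cx3cr1 and Ccr9 with spermidine). Counts of 13 to 26 per control library limit Ccr1, Fpr1, Fpr2 and Ccr9.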
